A study of Saccharomyces cerevisiae with 24 samples.

Results

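Budding yeast splices few of its genes, and ribosomal protein genes make up a large share of those it does splice. The genes described here are 57 vegetatively expressed protein-coding genes that hold an intron and code for no ribosomal protein. They were taken by systematic name from a hand-made list that includes ACT1, TUB1, COF1, UBC4, GLC7 and SUS1. All 57 names were found among the 7127 features of the count table, all 57 have an annotated intron in build R64, and all 57 were among the 6518 features with enough counts to be tested.

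The libraries came from W303 yeast of mating type a (MATa, GAL+, with mutant alleles of ade2, can1, his3, leu2, trp1 and ura3), an npl3-shuffle strain, in which a plasmid copy of NPL3 stands in for the chromosomal gene. The pRS315 plasmid, a low-copy LEU2 vector, carried npl3-F162Y with a change in the first RNA recognition motif (RRM1), npl3-P196D-A197D with changes in the linker between the motifs, npl3-F245I with a change in the second motif (RRM2), or wild-type NPL3. Cells grew in rich medium to mid-log phase at 30 °C, and were either moved to 37 °C for 1 h or kept at 30 °C, which gives 8 groups of 3 libraries, 24 in all. The promoter of the plasmid gene is not stated in the labels, nor whether replicates were separate cultures, so p-values cover only how far these libraries spread, and that spread may be technical.

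The spliceosome recognises an intron by short sequences at its 5′ end, around the branch point and at its 3′ end, and yeast keeps these close to a fixed consensus. Npl3 is an SR-like protein that binds nascent transcripts, helps recruit splicing factors during transcription and accompanies the mRNA to the cytoplasm. Glc7, coded by one of the genes described here, is the phosphatase that removes a phosphate from Npl3 before export. Counts per gene do not show how much of a transcript is spliced, so the values below are levels of each gene's mRNA and not measures of splicing.

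The 57 genes hold 60 introns, since SUS1, VMA9 and TAD3 have 2 each. Their introns ran from 56 to 525 bases with a median of 95.5 bases, against 408 bases for the 91 introns of 89 ribosomal protein genes and 99.0 bases for the 130 introns of 125 other genes with an intron. The introns of the genes whose changes are described most fully follow 5′ to 3′ as the transcript reads, from the RefSeq R64 reference and not from W303, together with those of ACT1 and SUS1. Capitals mark the first 6 bases, the branch point letters and the last 3 bases; for GLC7 and ACT1 only the final 100 bases are given and positions are those of the stretch shown.
UBC8 intron, chrV:131777-131899, plus strand: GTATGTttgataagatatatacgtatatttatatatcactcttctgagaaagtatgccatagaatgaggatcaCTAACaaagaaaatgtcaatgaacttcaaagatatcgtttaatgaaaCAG
UBC5 intron, chrIV:569634-569723, minus strand: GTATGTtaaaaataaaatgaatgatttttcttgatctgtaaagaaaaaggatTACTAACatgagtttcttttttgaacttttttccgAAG
GLC7 intron, last 100 bases, chrV:433097-433196, plus strand: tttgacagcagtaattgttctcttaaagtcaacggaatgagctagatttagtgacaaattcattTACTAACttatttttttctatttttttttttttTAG
NMD2 intron, chrVIII:255638-255750, minus strand: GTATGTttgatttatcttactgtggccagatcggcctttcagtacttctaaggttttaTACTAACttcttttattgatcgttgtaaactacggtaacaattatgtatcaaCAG
BET4 intron, chrX:387349-387435, minus strand: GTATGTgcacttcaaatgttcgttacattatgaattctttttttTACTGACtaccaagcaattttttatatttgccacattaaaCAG
IWR1 intron, chrIV:254975-255044, minus strand: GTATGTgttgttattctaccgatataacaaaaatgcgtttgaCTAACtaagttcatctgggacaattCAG
SRB2 intron, chrVIII:189750-189850, minus strand: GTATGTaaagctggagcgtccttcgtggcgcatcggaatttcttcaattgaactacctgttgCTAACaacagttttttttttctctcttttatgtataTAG
VMA9 intron 1, chrIII:107034-107110, plus strand: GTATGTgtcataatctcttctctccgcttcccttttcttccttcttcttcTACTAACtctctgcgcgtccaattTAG
VMA9 intron 2, chrIII:107192-107287, plus strand: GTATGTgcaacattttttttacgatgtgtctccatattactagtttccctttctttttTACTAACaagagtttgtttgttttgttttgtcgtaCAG
ACT1 intron, last 100 bases, chrVI:54378-54477, minus strand: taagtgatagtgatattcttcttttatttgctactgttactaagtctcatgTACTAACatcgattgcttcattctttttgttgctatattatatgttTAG
SUS1 intron 1, chrII:462210-462289, plus strand: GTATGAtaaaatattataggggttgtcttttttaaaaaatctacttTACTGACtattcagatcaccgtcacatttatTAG
SUS1 intron 2, chrII:462430-462499, plus strand: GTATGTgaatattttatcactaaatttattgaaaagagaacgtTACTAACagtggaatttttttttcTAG

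In this set UBC5, GLC7, NMD2, ACT1, both VMA9 introns and the second SUS1 intron hold the full TACTAAC. UBC8, IWR1 and SRB2 hold only CTAAC, and BET4 and the first SUS1 intron hold TACTGAC. The first SUS1 intron also starts with GTATGA in place of GTATGT. The last branch letter lay 20 bases before the end of the intron in the first VMA9 and second SUS1 introns and 48 bases before it in NMD2.

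Over all 60 introns, 51 began with GTATGT (85.0%), against 73.0% of the 281 annotated coding introns. The other starts were GTAAGT in SNC1 and UBC9, GTACGT in ARP9 and UBC12, GTATGA in BET1 and the first SUS1 intron, and GTATGC in COF1, GIM4 and HNT2. TACTAAC was found in 48 introns (80.0%), against 82.6% of all annotated coding introns and 93.4% of ribosomal protein introns. TACTNAC, which includes TACTAAC, was found in 50 (83.3%, against 83.6% of all), and CTAAC, which lies within TACTAAC, in 56 (93.3%, against 267 of the 281). The search read the transcribed strand of each intron only. In 52 of the 60 introns fewer than 100 coding bases lie before the intron.

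Assigned counts per library ran from 15.8 to 34.7 M. NPL3 itself was read in every group: at 30 °C it averaged 272 ± 17.2, 329 ± 6.45 and 212 ± 5.77 CPM in npl3-F162Y, npl3-P196D-A197D and npl3-F245I, against 204 ± 5.19 CPM in NPL3, and at 37 °C 255 ± 24.0, 299 ± 21.3 and 342 ± 3.84 CPM, against 192 ± 11.4 CPM in NPL3 (SD, n = 3 each). Gene counts do not show which allele was read. Of the 5 a-cell markers all were detected, and their summed level at 30 °C was 1600 to 1630, 1780 to 1830 and 1520 to 1550 CPM in the 3 mutants in that order, against 2560 to 2640 CPM in NPL3. At 37 °C the sums were 968 to 1000, 913 to 967 and 841 to 892 CPM, against 919 to 1030 CPM in NPL3. The 4 alpha-cell markers were also all detected and summed to 92.2 to 127 CPM in mutant libraries and 67.4 to 72.3 CPM in NPL3 libraries, and the part of these marker differences in the results below was not tested. The 4 replicate 2 libraries at 37 °C carry sample numbers from another number series than the other 20 libraries.

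Levels are given as CPM, counts scaled to a common library size that includes TMM factors. Per kilobase of coding sequence, ACT1 (actin) had the highest level of the 57 in NPL3 cells at 30 °C, 2350 CPM per kb, followed by the ubiquitin-conjugating enzyme gene UBC4 with 1710, the cell wall protein gene ECM33 with 1230, the profilin gene PFY1 with 1190 and the cofilin gene COF1 with 1090 CPM per kb. The lowest were TFC3, the largest subunit gene of the RNA polymerase III factor TFIIIC, with 19.5 CPM per kb, and UBC12, which conjugates the ubiquitin-like Rub1, with 46.7 CPM per kb. No library held fewer than 362 counts of any of the 57 genes, and the median coefficient of variation within a group was 3.3%. Together the 57 genes took 12430 to 12540 CPM in npl3-F162Y, 12350 to 12580 CPM in npl3-P196D-A197D and 12070 to 12270 CPM in npl3-F245I at 30 °C, against 12430 to 12690 CPM in NPL3. At 37 °C the sums were 11810 to 12090, 11750 to 12150 and 11030 to 11530 CPM in the same order of mutants, against 11580 to 11760 CPM in NPL3. The highest npl3-F245I sum at 37 °C lay below the lowest NPL3 sum, the npl3-F162Y sums lay above every NPL3 sum, and the npl3-P196D-A197D sums overlapped them. Abundant genes weigh most in these sums. ACT1 alone averaged 2660 CPM in npl3-F162Y and 2380 CPM in NPL3 at 37 °C, while 11 of the 57 genes were called higher and 22 lower there.

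At 30 °C a minority of the 57 genes rose and a larger number fell in each mutant, all by less than 2-fold. A gene was called where its p from edgeR's quasi-likelihood test, adjusted by Benjamini-Hochberg over all features tested, was under 0.05. In npl3-F162Y 10 of 57 were higher and 26 lower than in NPL3, beside 29.8% and 38.6% of all features tested. The linker mutant had 9 higher and 14 lower genes, beside 24.1% and 31.7% of all features, and in npl3-F245I 8 were higher and 19 lower, beside 24.5% and 33.3%. The median log2 change of the 57 was -0.09, -0.08 and -0.08 in the 3 mutants, and that of all features was -0.04 in each. As shares of the 57, the rises were 17.5%, 15.8% and 14.0% and the falls 45.6%, 24.6% and 33.3%. In the fit of only the groups compared 13 genes were higher in npl3-F245I, and the share of all features in that fit is not given here. The 3 mutants share the NPL3 libraries, so their values are given side by side and not as independent results.

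At 37 °C the counts against NPL3 were of similar size. In npl3-F162Y 11 of 57 genes were higher and 22 lower, beside 28.0% and 30.8% of all features. In npl3-P196D-A197D 10 were higher and 14 lower, beside 21.3% and 22.4%, and in npl3-F245I 6 were higher and 27 lower, beside 24.0% and 26.5%. The median log2 changes of the 57 were -0.08, -0.03 and -0.12, against -0.02 over all features in each mutant. The number of lower genes was 11, 4 and 15 where only the 2 groups compared entered the fit. The share of all features called in those fits is not given here, so the drop is not read as particular to the 57.

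**Figure D1:**
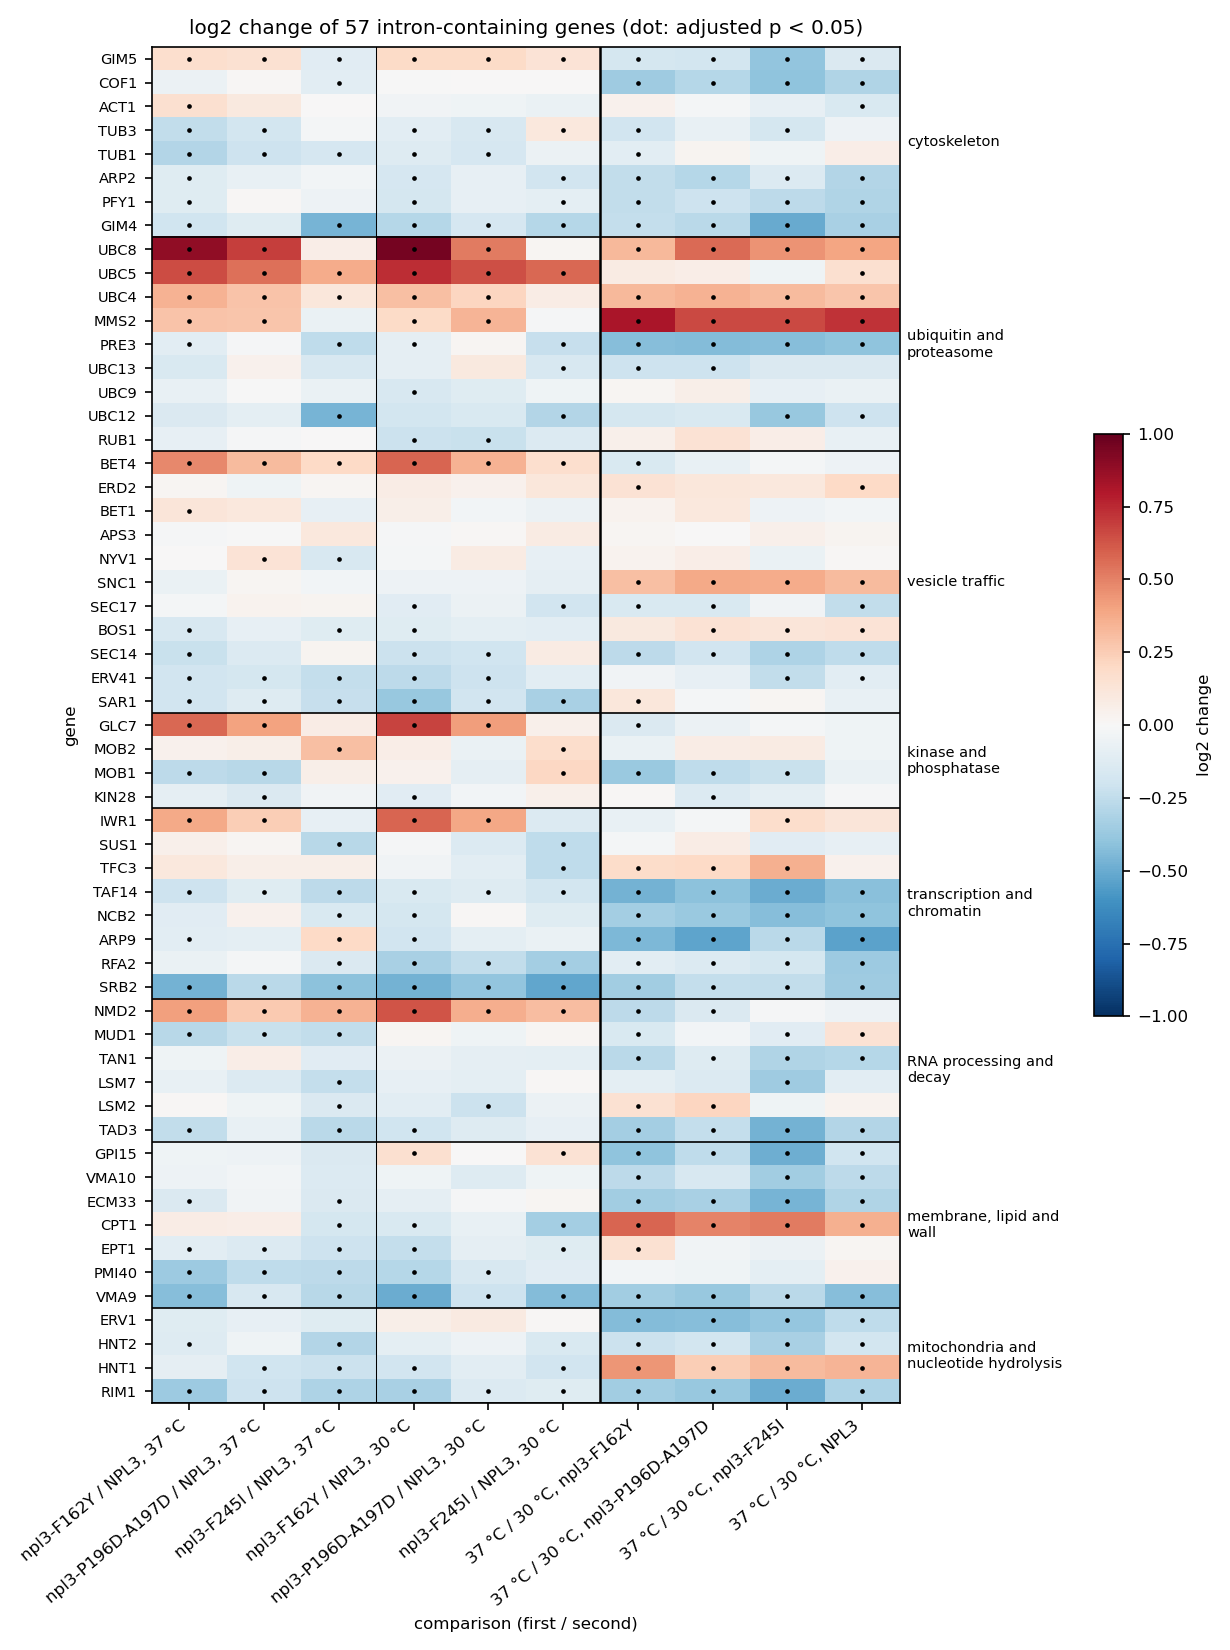
Log2 changes of the 57 genes (rows, grouped by role) in 10 comparisons (columns, first group over second), red for higher and blue for lower; a dot marks an adjusted p under 0.05. UBC8, UBC5, GLC7, NMD2, BET4 and IWR1 stand out as red in the npl3-F162Y and npl3-P196D-A197D columns, and MMS2 in the heat columns.

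The ubiquitin and proteasome group of 9 genes held the largest rises. In npl3-F162Y at 30 °C 4 of them were higher and 3 lower, beside 4 higher and 1 lower in npl3-P196D-A197D and 1 higher and 3 lower in npl3-F245I. As shares of the 9 the rises were 44.4%, 44.4% and 11.1%, beside 29.8%, 24.1% and 24.5% of all features, and the falls 33.3%, 11.1% and 33.3%, beside 38.6%, 31.7% and 33.3%. UBC8 (YEL012W, chromosome V, 131772 to 132551), a ubiquitin-conjugating enzyme known for the breakdown of a gluconeogenic enzyme when glucose returns, had 107, 101 and 99.7 CPM in npl3-F162Y at 30 °C, against 56.2, 51.7 and 51.0 CPM in NPL3. The libraries of these groups did not overlap, and UBC8 was 1.94-fold higher (log2 0.96 ± 0.08 SE, edgeR adjusted p = 4.56e-10). In npl3-P196D-A197D it had 75.2, 78.2 and 74.4 CPM, also above every NPL3 library, a 1.43-fold rise (log2 0.52 ± 0.08 SE). In npl3-F245I it had 56.0, 54.9 and 50.5 CPM, which overlapped NPL3. The log2 difference there was 0.02, with a 95% interval (-0.15 to 0.19) that lay below the changes of both other mutants.

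UBC8 kept this order at 37 °C. It had 132, 115 and 139 CPM in npl3-F162Y, 102.9 to 118.7 CPM in npl3-P196D-A197D and 73.8, 69.0 and 77.3 CPM in npl3-F245I, against 61.5, 68.6 and 79.1 CPM in NPL3. The npl3-F162Y libraries (1.85-fold, log2 0.88 ± 0.08 SE) and the npl3-P196D-A197D libraries (1.61-fold, log2 0.69 ± 0.08 SE) lay above all NPL3 libraries, and those of npl3-F245I lay among them.

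UBC5 (YDR059C, chromosome IV, 569234 to 569770) and UBC4 code for closely related ubiquitin-conjugating enzymes that act on short-lived and abnormal proteins, and their coding sequences are 77.4% identical, so reads of both can be told apart at most positions. UBC5 had 81.1, 81.7 and 83.4 CPM in npl3-F162Y, 76.1, 76.5 and 78.1 CPM in npl3-P196D-A197D and 73.9, 73.6 and 72.9 CPM in npl3-F245I at 30 °C, against 48.1, 50.2 and 49.5 CPM in NPL3. Every mutant library lay above every NPL3 library, and UBC5 was 1.67-, 1.56- and 1.49-fold higher (log2 0.74, 0.64 and 0.58, SE 0.05 each). At 37 °C the folds were 1.58, 1.46 and 1.29, again with no overlap. In npl3-F162Y UBC4 rose by log2 0.30 ± 0.04 at 30 °C and 0.34 ± 0.04 at 37 °C, and npl3-P196D-A197D showed rises of 0.22 ± 0.04 and 0.28 ± 0.04 (SE). In npl3-F245I UBC4 differed by 0.08 at 30 °C (edgeR adjusted p = 0.0934) and rose by 0.12 at 37 °C (edgeR adjusted p = 0.0158). The value at 30 °C passed under RLE size factors (0.10, edgeR adjusted p = 0.0263), in DESeq2 (adjusted p = 0.0111), without NPL3 replicate 1 (0.11, edgeR adjusted p = 0.0279) and in the fit of only these groups (0.12, edgeR adjusted p = 0.00697). The call at 37 °C ended without NPL3 replicate 1 (log2 0.09, edgeR adjusted p = 0.0636), without npl3-F245I replicate 2 (log2 0.10, edgeR adjusted p = 0.0551), without the 4 separately numbered libraries (edgeR adjusted p = 0.0803) and in the fit of only these groups (edgeR adjusted p = 0.142).

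MMS2 codes for a partner of the enzyme Ubc13 in the repair of damaged DNA. It rose in npl3-F162Y (log2 0.19 at 30 °C and 0.29 at 37 °C) and in npl3-P196D-A197D (0.34 and 0.28), while UBC13, also among the 57, had log2 values of -0.09 and 0.10 at 30 °C and -0.15 and 0.04 at 37 °C in these mutants and did not pass. In npl3-F245I the MMS2 values were -0.01 and -0.06 and did not pass. UBC12 fell in npl3-F245I, with 18.0, 15.1 and 16.9 CPM at 37 °C against 25.04, 19.05 and 24.82 CPM in NPL3 (log2 -0.47 ± 0.09 SE, edgeR adjusted p = 0.000178), groups that did not overlap. RUB1, which codes for the modifier that Ubc12 attaches, was lower in npl3-P196D-A197D at 30 °C by 0.22 on the log2 scale (edgeR adjusted p = 0.0112), and this call ended without NPL3 replicate 1 (log2 -0.18, edgeR adjusted p = 0.0637). RUB1 was also called lower in npl3-F162Y at 30 °C.

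**Figure D2:**
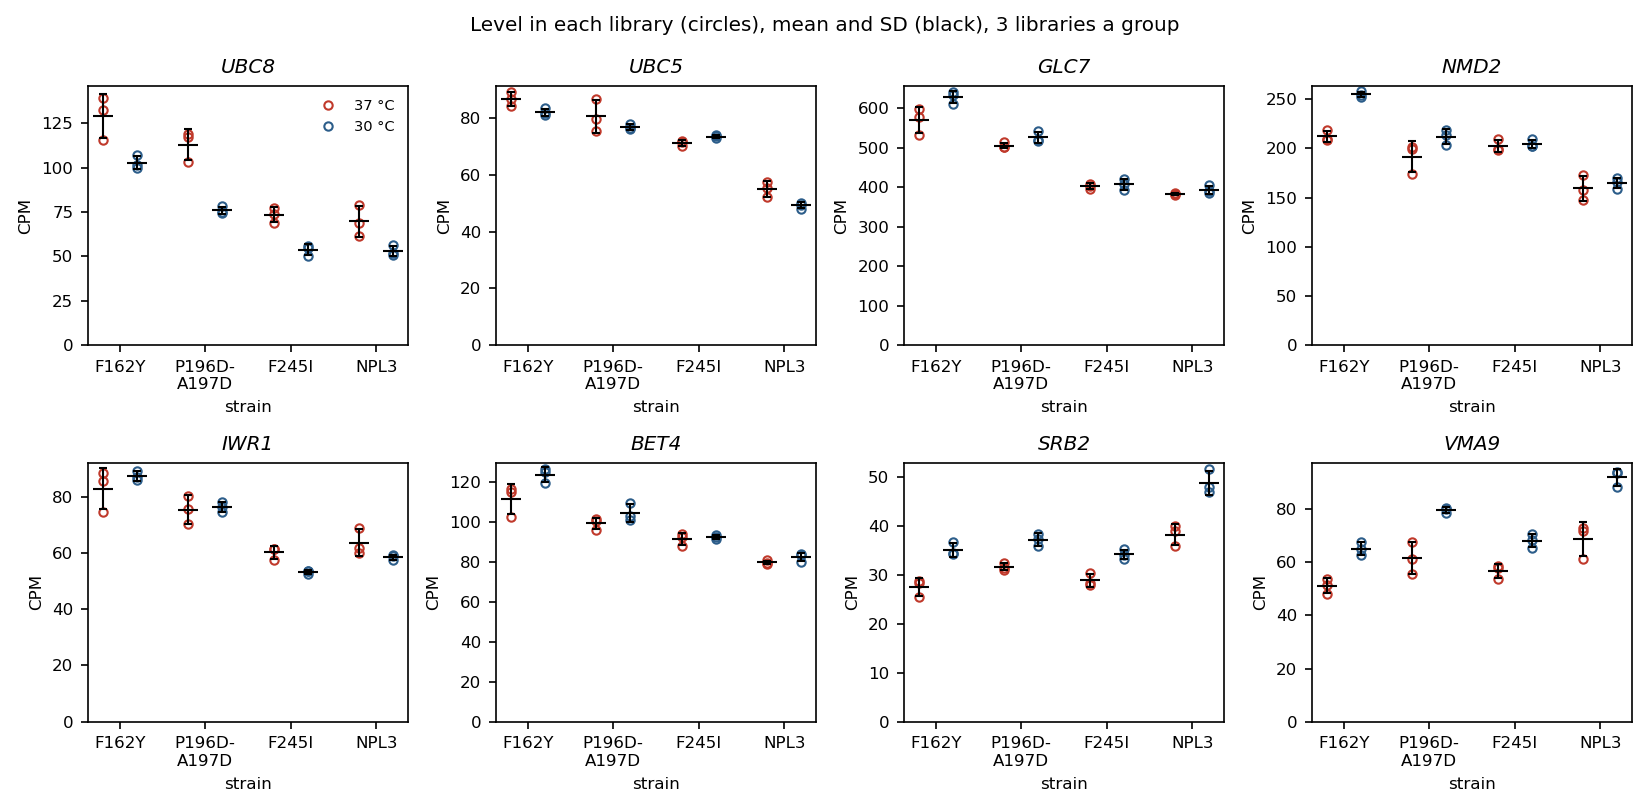
Level (CPM, linear axis from 0) of 8 genes in each library, by strain, at 37 °C (red circles) and 30 °C (blue circles), with the mean and SD of 3 libraries in black. UBC5 is above NPL3 in all 3 mutants, UBC8, GLC7 and IWR1 in npl3-F162Y and npl3-P196D-A197D, and SRB2 is below NPL3 in every mutant at both temperatures.

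Among the 4 kinase and phosphatase genes, GLC7 stood apart. GLC7 (YER133W, chromosome V, 432495 to 433958), the catalytic subunit of protein phosphatase type 1, has the longest intron of the 57 genes, 525 bases. At 30 °C it had 640, 633 and 611 CPM in npl3-F162Y and 517, 519 and 541 CPM in npl3-P196D-A197D, against 405.2, 391.3 and 385.0 CPM in NPL3. Both mutants lay above all NPL3 libraries, 1.59-fold (log2 0.67 ± 0.04 SE, edgeR adjusted p = 6.26e-13) and 1.34-fold higher (log2 0.42 ± 0.04 SE, edgeR adjusted p = 7.92e-09). In npl3-F245I it had 409.2, 420.2 and 392.1 CPM, which overlapped NPL3, with a log2 difference of 0.05 (95% interval -0.04 to 0.13, edgeR adjusted p = 0.319) that passed in the fit of only these groups (0.09, edgeR adjusted p = 0.036).

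At 37 °C the GLC7 rises were 1.49-fold and 1.32-fold in these mutants. In npl3-F245I at 37 °C it had 395, 403 and 409 CPM, against 383, 381 and 385 CPM in NPL3, and the log2 difference of 0.07 did not pass (edgeR adjusted p = 0.14). MOB1 and MOB2 code for activators of the kinases Dbf2 and Cbk1, which act at the exit from mitosis and in daughter cells. MOB1 rose by log2 0.21 and MOB2 by 0.18 in npl3-F245I at 30 °C (SE 0.05 each), and MOB2 by 0.30 at 37 °C. In npl3-P196D-A197D MOB1 was lower at 37 °C by 0.28 on the log2 scale, and it was also called lower in npl3-F162Y at 37 °C.

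In the RNA processing and decay group of 6 genes, NMD2 was the member that rose. NMD2 (YHR077C, chromosome VIII, 252374 to 255756) codes for Upf2 of nonsense-mediated decay, the pathway that degrades unspliced transcripts with early stop codons in the cytoplasm. At 30 °C it had 252, 254 and 258 CPM in npl3-F162Y, 218, 203 and 214 CPM in npl3-P196D-A197D and 202, 210 and 202 CPM in npl3-F245I, against 166, 170 and 159 CPM in NPL3. Every mutant library lay above every NPL3 library, and the log2 changes were 0.63 ± 0.05, 0.36 ± 0.05 and 0.31 ± 0.05 (SE). At 37 °C they were 0.41, 0.26 and 0.35, each past the test and again with no overlap.

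MUD1, the yeast counterpart of the U1 snRNP A protein, did not pass in any mutant at 30 °C. At 37 °C it had 44.1, 40.2 and 41.9 CPM in npl3-F162Y, 42.6, 43.6 and 44.9 CPM in npl3-P196D-A197D and 43.3, 42.3 and 43.2 CPM in npl3-F245I, against 49.9, 48.1 and 54.7 CPM in NPL3. The mutants lay below all NPL3 libraries, with log2 changes of -0.28, -0.22 and -0.25, and the call in npl3-P196D-A197D ended in the fit of only these groups (edgeR adjusted p = 0.0556). LSM2, of the Lsm rings that bind U6 snRNA and decaying mRNA, was lower in npl3-P196D-A197D at 30 °C by 0.22 on the log2 scale. It was also called lower in npl3-F245I at 37 °C. Of the wider machinery, 27 of 92 splicing factor genes were higher and 30 lower in npl3-F162Y at 30 °C, while npl3-P196D-A197D had 16 higher and 31 lower and npl3-F245I 23 higher and 25 lower. The shares of all features were 29.8% and 38.6%, 24.1% and 31.7%, and 24.5% and 33.3% in the same order.

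Genes of transcription and chromatin moved in both directions. IWR1 (YDL115C, chromosome IV, 253995 to 255126), an import factor of RNA polymerase II, had 89.3, 87.1 and 85.8 CPM in npl3-F162Y and 74.7, 76.2 and 78.1 CPM in npl3-P196D-A197D at 30 °C, against 58.8, 59.1 and 57.5 CPM in NPL3. Both lay above NPL3 (log2 0.58 ± 0.06 and 0.39 ± 0.06 SE), and at 37 °C the rises were 0.38 and 0.24. In npl3-F245I IWR1 had 53.7, 53.7 and 52.3 CPM at 30 °C, below all NPL3 libraries, with a log2 difference of -0.14 that did not pass.

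SRB2 (YHR041C, chromosome VIII, 189131 to 189864), a subunit of Mediator, fell in every mutant at both temperatures. It had 36.8, 34.4 and 34.2 CPM in npl3-F162Y, 35.9, 38.4 and 37.3 CPM in npl3-P196D-A197D and 35.2, 34.1 and 33.3 CPM in npl3-F245I at 30 °C, against 47.9, 47.0 and 51.6 CPM in NPL3. The log2 changes were -0.47, -0.39 and -0.52 (SE 0.06 each) and no library overlapped NPL3. At 37 °C they were -0.47, -0.27 and -0.41, again with no overlap.

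RFA2, a subunit of the single-stranded DNA binding protein RPA, had 118.5, 116.7 and 117.3 CPM in npl3-F162Y, 117.4, 130.8 and 122.2 CPM in npl3-P196D-A197D and 114, 115 and 119 CPM in npl3-F245I at 30 °C, against 147, 144 and 149 CPM in NPL3. It fell by 0.32, 0.25 and 0.34 on the log2 scale, with no overlap. SUS1, whose protein serves both SAGA deubiquitination and mRNA export, fell in npl3-F245I by 0.25 at 30 °C and 0.28 at 37 °C on the log2 scale (SE 0.07 each). In npl3-F162Y SUS1 differed by -0.01 and 0.05, and in npl3-P196D-A197D by -0.14 and 0.02, none of which passed. The value of -0.14 passed in a fit with the sample number series as a term (edgeR adjusted p = 0.00834) and in a fit without the 4 separately numbered libraries (edgeR adjusted p = 0.0125). ARP9, an actin-related subunit of the chromatin remodellers SWI/SNF and RSC, rose in npl3-F245I at 37 °C by log2 0.20, with 127.7, 125.7 and 136.7 CPM against 118.9, 110.5 and 110.5 CPM in NPL3, ranges that did not overlap.

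In the vesicle traffic group of 11 genes, BET4 was the member that rose in every mutant. BET4 (YJL031C, chromosome X, 386368 to 387438) codes for a subunit of the enzyme that attaches lipid anchors to Rab GTPases. It had 125, 119 and 127 CPM in npl3-F162Y, 103, 101 and 110 CPM in npl3-P196D-A197D and 91.5, 93.7 and 92.6 CPM in npl3-F245I at 30 °C, against 83.5, 83.9 and 80.0 CPM in NPL3. All 3 mutants lay above NPL3, with log2 changes of 0.58, 0.34 and 0.17 (SE 0.05 each), and at 37 °C with changes of 0.48, 0.32 and 0.20.

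SAR1 (YPL218W, chromosome XVI, 138698 to 139409), the GTPase that starts COPII coat assembly, fell in all 3 mutants. At 30 °C it had 233, 237 and 231 CPM in npl3-F162Y, 259, 275 and 266 CPM in npl3-P196D-A197D and 240, 248 and 242 CPM in npl3-F245I, against 306, 294 and 312 CPM in NPL3. The log2 changes were -0.38, -0.19 and -0.32, and no library overlapped NPL3. ERV41, a protein of COPII vesicles, fell by 0.21 on the log2 scale in npl3-P196D-A197D at 30 °C. It was also called lower in npl3-P196D-A197D at 37 °C, in npl3-F162Y at both temperatures and in npl3-F245I at 37 °C.

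Among the 8 cytoskeleton genes, ACT1 (YFL039C, chromosome VI, 53260 to 54696) had 2601, 2575 and 2569 CPM in npl3-F162Y, 2541, 2587 and 2586 CPM in npl3-P196D-A197D and 2469, 2569 and 2538 CPM in npl3-F245I at 30 °C, against 2710, 2602 and 2625 CPM in NPL3. All mutant libraries lay just below the lowest NPL3 library, yet the log2 differences of -0.04, -0.04 and -0.07 did not pass (edgeR adjusted p = 0.64, 0.61 and 0.387). At 37 °C ACT1 passed in npl3-F162Y (log2 0.16, 95% interval 0.03 to 0.29, edgeR adjusted p = 0.0378), where its libraries had 2509, 2932 and 2530 CPM against 2286, 2527 and 2327 CPM in NPL3 and overlapped. Without npl3-F162Y replicate 2 the value was 0.08 (edgeR adjusted p = 0.284), and the call also ended without NPL3 replicate 1 (0.13, edgeR adjusted p = 0.114) or 3 (0.15, edgeR adjusted p = 0.0799) and in the fit of only these groups (edgeR adjusted p = 0.126).

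TUB1, the main alpha-tubulin, was lower by 0.13 and 0.17 on the log2 scale in npl3-F162Y and npl3-P196D-A197D at 30 °C, and by 0.30, 0.20 and 0.16 in npl3-F162Y, npl3-P196D-A197D and npl3-F245I at 37 °C. The call in npl3-F245I ended in the fit of only these groups (edgeR adjusted p = 0.0502). COF1, which severs actin filaments, differed by -0.003, 0.002 and 0.005 at 30 °C and passed in npl3-F245I alone at 37 °C, with 353, 358 and 355 CPM against 373, 371 and 399 CPM in NPL3 (log2 -0.10, edgeR adjusted p = 0.0297). That call ended without NPL3 replicate 3 (-0.05, edgeR adjusted p = 0.308), without npl3-F245I replicate 1 (-0.10, edgeR adjusted p = 0.0786) or 3 (-0.10, edgeR adjusted p = 0.0666) and in the fit of only these groups (edgeR adjusted p = 0.224).

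GIM4 and GIM5 code for subunits of prefoldin, the chaperone that hands actin and tubulin to the folding machinery, and they moved apart. GIM4 fell by 0.28, 0.17 and 0.28 on the log2 scale in the mutants at 30 °C, and by 0.47 in npl3-F245I at 37 °C. It was also called lower in npl3-F162Y at 37 °C. GIM5 rose by log2 0.20, 0.19 and 0.14 at 30 °C. At 37 °C GIM5 had 69.1, 66.5 and 70.8 CPM in npl3-F245I, against 73.6, 73.6 and 75.3 CPM in NPL3, and was lower by 0.11, the 1 gene of the 57 called in opposite directions at the 2 temperatures in a mutant. The number of lower genes in that comparison ran from 18 to 32 with single libraries left out. Whether this small GIM5 difference stayed called there is not given here.

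Membrane, lipid and wall genes mostly fell where they changed. VMA9 (YCL005W-A, chromosome III, 107023 to 107417), a small membrane subunit of the vacuolar proton pump, had 64.8, 67.7 and 62.9 CPM in npl3-F162Y, 78.5, 80.5 and 80.2 CPM in npl3-P196D-A197D and 68.2, 65.5 and 70.7 CPM in npl3-F245I at 30 °C, against 94.1, 93.6 and 88.3 CPM in NPL3. All mutants lay below NPL3, with log2 changes of -0.50, -0.21 and -0.43 (SE 0.07 in npl3-F162Y and npl3-F245I). PMI40, the mannose-6-phosphate isomerase of protein mannosylation, fell by 0.36, 0.25 and 0.26 at 37 °C on the log2 scale. CPT1, which makes phosphatidylcholine from CDP-choline, fell by 0.34 in npl3-F245I at 30 °C. It was also called lower in npl3-F245I at 37 °C and in npl3-F162Y at 30 °C.

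Of the 4 genes of mitochondria and nucleotide hydrolysis, RIM1 fell in every mutant at both temperatures. RIM1 codes for the single-stranded DNA binding protein of mitochondria. Its log2 changes were -0.32, -0.14 and -0.12 at 30 °C and -0.37, -0.21 and -0.31 at 37 °C, and the call in npl3-P196D-A197D at 37 °C ended in the fit of only these groups (edgeR adjusted p = 0.0777). HNT2, a hydrolase of dinucleoside polyphosphates, fell by 0.29 on the log2 scale in npl3-F245I at 37 °C. It was also called lower in npl3-F245I at 30 °C and in npl3-F162Y at 37 °C.

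Many of the calls recurred between the 2 temperatures, which share no library. The matching overlap over all features is not given here, so the recurrence is not read as particular to the genes described here. Of the 10 genes higher in npl3-F162Y at 30 °C 9 were also higher at 37 °C, which is 81.8% of the 11 higher there, and of the 26 lower at 30 °C 18 were also among the 22 lower at 37 °C. In npl3-P196D-A197D all 9 genes higher at 30 °C were among the 10 higher at 37 °C, and 9 of the 14 lower were among the 14 lower at 37 °C. In npl3-F245I 4 of the 8 higher genes (BET4, MOB2, NMD2 and UBC5) were among the 6 higher at 37 °C. There 14 of 19 lower genes were among the 27 lower at 37 °C, which is 51.9% of the 27.

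Other intron genes were set beside the 57 to place them. At 30 °C the median log2 change of the 121 tested other genes with an intron was -0.14 in npl3-F162Y, -0.09 in npl3-P196D-A197D and -0.14 in npl3-F245I, and that of the 89 ribosomal protein genes with an intron was -0.48, -0.32 and -0.36. At 37 °C the ribosomal protein medians were -0.42, -0.28 and -0.55. The 57 genes, with medians of -0.03 to -0.12, thus lay close to all features and not near the ribosomal protein genes in all 6 comparisons.

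**Figure D3:**
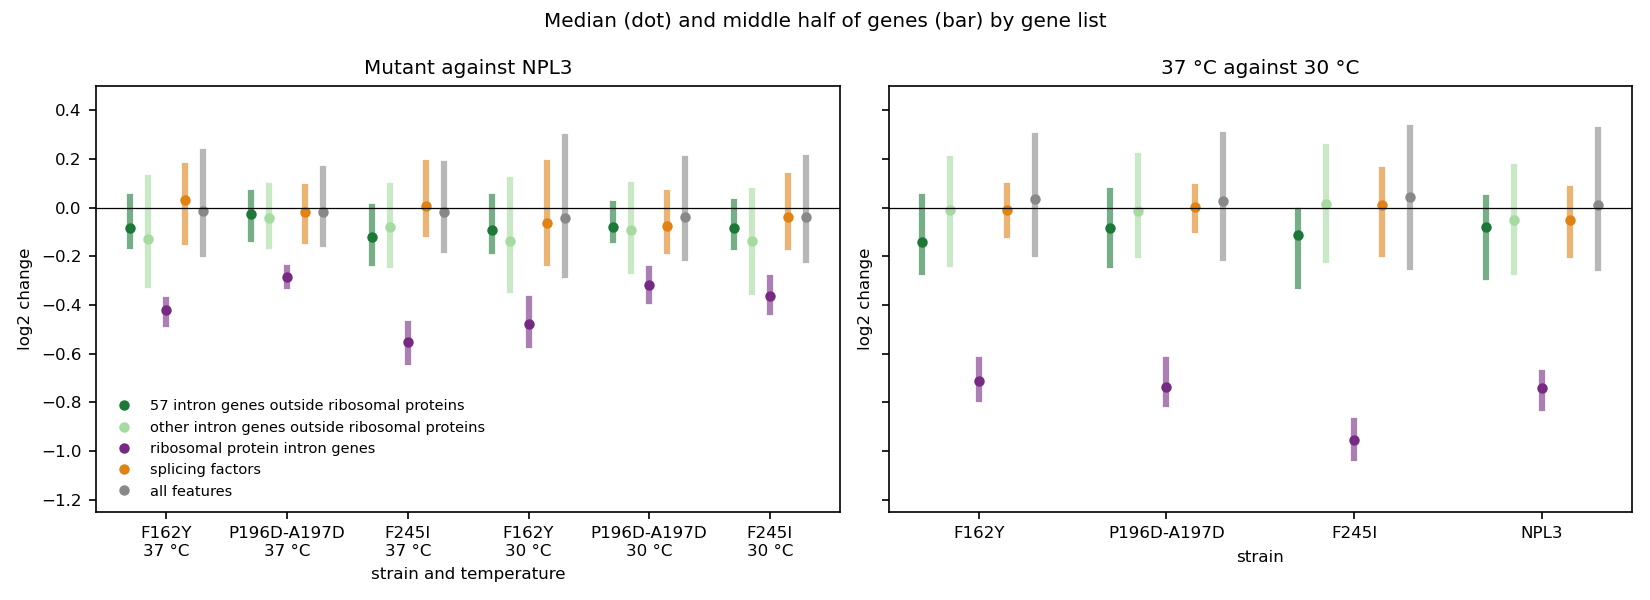
Median log2 change (dot) and the middle 50% of the genes (bar) of 5 gene lists, for each mutant against NPL3 at 37 °C and 30 °C (left) and for 37 °C against 30 °C in each strain (right). The medians of the 57 genes (dark green) run from -0.03 to -0.14. They lie near those of all features (grey) at left and have the opposite sign to them at right. Ribosomal protein genes with an intron (purple) lie lower, from -0.28 to -0.96.

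Intron features were read against the changes as a description. Spearman's rho between summed intron length and the log2 change at 30 °C was -0.10, -0.13 and -0.11 across the 57 genes, which share libraries and are not independent replicates. The 48 genes whose introns all start with GTATGT, which are most of the 57, held all 10 rises in npl3-F162Y at 30 °C and 23 of the 26 falls. The 9 other genes held 3 falls. Of all features 29.8% were higher and 38.6% lower in that comparison. At 37 °C the 9 genes held 1 rise and 3 falls in npl3-F162Y and 1 rise and 5 falls in npl3-F245I. A tie between the start letters and the changes was not tested. Of the 11 genes with an intron lacking TACTAAC 3 were higher and 4 lower in npl3-F162Y at 30 °C, with a median of -0.01 against -0.10 for the other 46. The medians stood in the other order in npl3-P196D-A197D (-0.09 against -0.08) and npl3-F245I (-0.08 against -0.07) at 30 °C. They also did so at 37 °C in npl3-F162Y (-0.12 against -0.08), npl3-P196D-A197D (-0.08 against -0.02) and npl3-F245I (-0.16 against -0.11). UBC8, BET4 and IWR1, shown above without TACTAAC, rose in npl3-F162Y, and SRB2, also without it, fell. UBC5 and GLC7 rose with TACTAAC present.

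**Figure D4:**
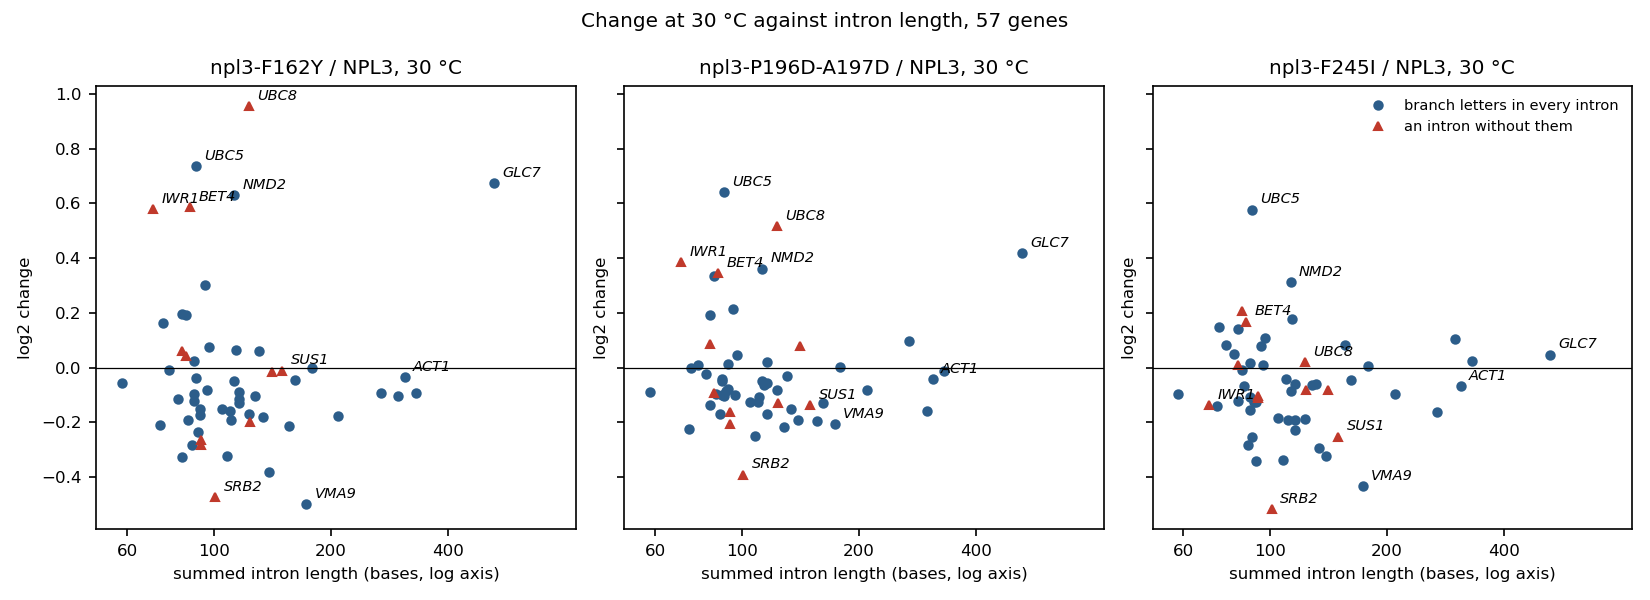
Log2 change of each of the 57 genes at 30 °C in each mutant against NPL3, by summed intron length (bases, log axis); triangles mark the 11 genes with an intron lacking the full branch point letters. High and low genes of either kind occur at short lengths, all 6 genes over 200 bases are circles, and GLC7 is the point at 525 bases.

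Moving the cells to 37 °C for 1 h lowered more of the 57 genes than it raised in every strain. In npl3-F162Y 11 were higher and 30 lower at 37 °C than at 30 °C, beside 34.4% and 27.0% of all features. In npl3-P196D-A197D 9 were higher and 25 lower, beside 33.4% and 28.5%, in npl3-F245I 9 and 27, beside 37.8% and 30.8%, and in NPL3 10 and 25, beside 34.1% and 32.9%. The median log2 changes of the 57 were -0.14, -0.08, -0.11 and -0.08 in the same order, against 0.04, 0.03, 0.04 and 0.01 over all features. With the sample number series as a term 14 genes were higher in npl3-P196D-A197D.

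MMS2 was the largest rise in every strain. It had 132, 126 and 133 CPM at 37 °C in npl3-F162Y, against 73.9, 75.1 and 73.1 CPM at 30 °C, and 105, 102 and 113 CPM at 37 °C in NPL3, against 66.5, 64.8 and 63.0 CPM at 30 °C. No library overlapped between the temperatures, and MMS2 was 1.76-, 1.58-, 1.58- and 1.65-fold higher in npl3-F162Y, npl3-P196D-A197D, npl3-F245I and NPL3. UBC8 rose by log2 0.33, 0.57, 0.45 and 0.40, and UBC4 by 0.32, 0.35, 0.32 and 0.28.

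CPT1 had 191, 209 and 198 CPM at 37 °C in npl3-F162Y, against 135, 129 and 135 CPM at 30 °C, and 179.6, 191.8 and 195.9 CPM at 37 °C in NPL3, against 152, 145 and 147 CPM at 30 °C. Its rises were log2 0.58, 0.50, 0.52 and 0.36 in the 4 strains, with no overlap in npl3-F162Y or NPL3. HNT1, a nucleotide hydrolase of the HIT family, rose by log2 0.44 in npl3-F162Y and 0.34 in NPL3, and SNC1, a SNARE of secretory vesicles, by 0.38 in npl3-P196D-A197D, 0.37 in npl3-F245I and 0.31 in NPL3. TFC3 rose by log2 0.35 in npl3-F245I.

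Genes of transcription and of the proteasome were among the largest falls at 37 °C. ARP9 had 109, 99.9 and 107 CPM at 37 °C in npl3-F162Y, against 141, 144 and 146 CPM at 30 °C, and 118.9, 110.5 and 110.5 CPM at 37 °C in NPL3, against 161.0 to 168.6 CPM at 30 °C. It fell by 0.45, 0.53 and 0.53 on the log2 scale in npl3-F162Y, npl3-P196D-A197D and NPL3, with no overlap in npl3-F162Y or NPL3. TAF14, a subunit shared by several transcription and chromatin complexes, fell by 0.47, 0.41, 0.49 and 0.42 in the 4 strains. NCB2, of the repressor NC2, fell by 0.40 in NPL3, and PRE3, a catalytic subunit of the proteasome core, by 0.42, 0.44 and 0.40 in npl3-F162Y, npl3-P196D-A197D and NPL3.

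Cytoskeleton genes fell or did not pass at 37 °C, with 7, 5, 6 and 6 of 8 lower in npl3-F162Y, npl3-P196D-A197D, npl3-F245I and NPL3, beside 27.0%, 28.5%, 30.8% and 32.9% of all features. COF1 fell by 0.35, 0.29, 0.40 and 0.30 on the log2 scale. ACT1 passed in NPL3 (log2 -0.15, edgeR adjusted p = 0.0401), and with single libraries left out its value ran from -0.20 to -0.13, with the call lost without replicate 1, 2 or 3 at 30 °C (edgeR adjusted p = 0.111, 0.0539 and 0.0638), without replicate 1 or 3 at 37 °C (edgeR adjusted p = 0.114 and 0.107) and in the fit of only these groups (edgeR adjusted p = 0.0791). In npl3-F245I ACT1 differed by -0.08 and passed without its replicate 2 at 37 °C (-0.17, edgeR adjusted p = 0.0161), without the 4 separately numbered libraries (-0.17, edgeR adjusted p = 0.000247) and with the number series as a term (-0.15, edgeR adjusted p = 0.000501). In npl3-P196D-A197D its value of -0.02 was -0.08 with that term and passed (edgeR adjusted p = 0.0391). TUB1 was lower in npl3-F162Y by 0.10 on the log2 scale (edgeR adjusted p = 0.0139), a call that ended without its replicate 1 at 37 °C (-0.09, edgeR adjusted p = 0.0665). Further falls were ERV1, of the mitochondrial disulfide relay (npl3-F162Y -0.44, npl3-P196D-A197D -0.42), VMA9 (-0.38 in npl3-P196D-A197D and -0.42 in NPL3), GPI15, of GPI anchor synthesis (-0.41 in npl3-F162Y and -0.49 in npl3-F245I), and GIM4, RIM1 and the tRNA deaminase gene TAD3 in npl3-F245I (-0.51, -0.50 and -0.48). VMA9 in npl3-F162Y had 51.39, 48.12 and 53.78 CPM at 37 °C, against 64.84, 67.65 and 62.86 CPM at 30 °C. TAD3 overlaps NKP2 on the other strand, and the sources used here do not give the strand setting of the counts.

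The response to 37 °C was compared between each mutant and NPL3 by the interaction contrast. In npl3-F162Y 3 genes had a higher and 4 a lower response than in NPL3, beside 11.8% and 8.68% of all features. Under RLE size factors, and in DESeq2, 7 genes were lower, and the share of higher responses among all features called was 47.1% under RLE size factors against 57.6% with TMM factors. The lower count was 2 in the fit of only these groups and ran from 2 (without npl3-F162Y replicate 1 at 37 °C) to 5 over single libraries left out.

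In npl3-P196D-A197D 1 gene, RFA2, had a higher and 0 a lower response, beside 5.57% and 5.08% of all features. By an unadjusted p under 0.05 in edgeR 3 genes were lower, and DESeq2 called 0. In npl3-F245I 5 genes were higher and 5 lower, beside 16.5% and 12.4%. The higher count there was 3 in the fit of only these groups and without NPL3 replicate 3 at 30 °C, npl3-F245I replicate 1 or 2 at 30 °C or replicate 1 at 37 °C. The lower count was 3 without npl3-F245I replicate 2 at 30 °C, 9 without the 4 separately numbered libraries and 9 in DESeq2.

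RFA2 fell by 0.37 on the log2 scale with the shift in NPL3, with 120, 106 and 116 CPM at 37 °C against 147, 144 and 149 CPM at 30 °C, which did not overlap. In the mutants it was already lower at 30 °C and fell by 0.11, 0.14 and 0.17, so the responses differed from that of NPL3 by log2 0.26, 0.23 and 0.19 in npl3-F162Y, npl3-P196D-A197D and npl3-F245I (SE 0.06 each). The call in npl3-P196D-A197D ended without NPL3 replicate 2 at 37 °C (0.18, edgeR adjusted p = 0.0667), without its own replicate 1 at 30 °C (0.20, edgeR adjusted p = 0.0687) or 37 °C (0.21, edgeR adjusted p = 0.0538) and in the fit of only these groups (edgeR adjusted p = 0.118). That in npl3-F245I ended in 5 of its fits with a library left out, with the lowest value of 0.14 without NPL3 replicate 2 at 37 °C (edgeR adjusted p = 0.0793), and in the fit of only these groups (edgeR adjusted p = 0.0611).

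MUD1 rose by log2 0.15 with the shift in NPL3 and fell by 0.15 and 0.12 in npl3-F162Y and npl3-F245I, differences of -0.30 ± 0.07 and -0.26 ± 0.07 (SE). MOB1 had 90.4, 90.0 and 92.9 CPM at 37 °C in npl3-F162Y, against 121, 115 and 118 CPM at 30 °C, and 102.6, 107.7 and 116.9 CPM at 37 °C in NPL3, against 103.8, 117.2 and 122.4 CPM at 30 °C. The temperatures did not overlap in npl3-F162Y and overlapped in NPL3, and the responses differed by -0.30 ± 0.08 (SE, edgeR adjusted p = 0.00641). In npl3-F162Y CPT1 (0.23) and SAR1 (0.19) had higher responses and NMD2 (-0.22) and TUB1 (-0.17) lower ones on the log2 scale. The CPT1 call ended without npl3-F162Y replicate 2 at 37 °C (0.20, edgeR adjusted p = 0.0514), the TUB1 call without replicate 1 at 37 °C (-0.15, edgeR adjusted p = 0.0529) and in the fit of only these groups (edgeR adjusted p = 0.0632). The NMD2 call (edgeR adjusted p = 0.0441) ended in 9 of its fits with a library left out, with the smallest difference of -0.15 without NPL3 replicate 1 at 37 °C (edgeR adjusted p = 0.105). It also ended in the fit of only these groups (edgeR adjusted p = 0.0706) and without the 4 separately numbered libraries (edgeR adjusted p = 0.088).

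In npl3-F245I TFC3 had 74.5, 71.9 and 72.2 CPM at 37 °C, against 60.4, 54.1 and 56.8 CPM at 30 °C, while in NPL3 it had 66.0, 73.7 and 69.8 CPM at 37 °C, against 69.2, 69.4 and 65.4 CPM at 30 °C. The npl3-F245I libraries separated by temperature and those of NPL3 did not, a difference in response of log2 0.31 ± 0.07 (SE, edgeR adjusted p = 0.0014). ARP9 (0.27), SEC17 (0.22) and, by the smallest of the 5, ARP2 (0.16) also had higher responses there. GPI15 (-0.29), GIM5 (-0.25), UBC5 (-0.21) and RIM1 (-0.19) had lower ones, and the GPI15 call ended without npl3-F245I replicate 2 at 30 °C (-0.24, edgeR adjusted p = 0.0597).

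**Figure D5:**
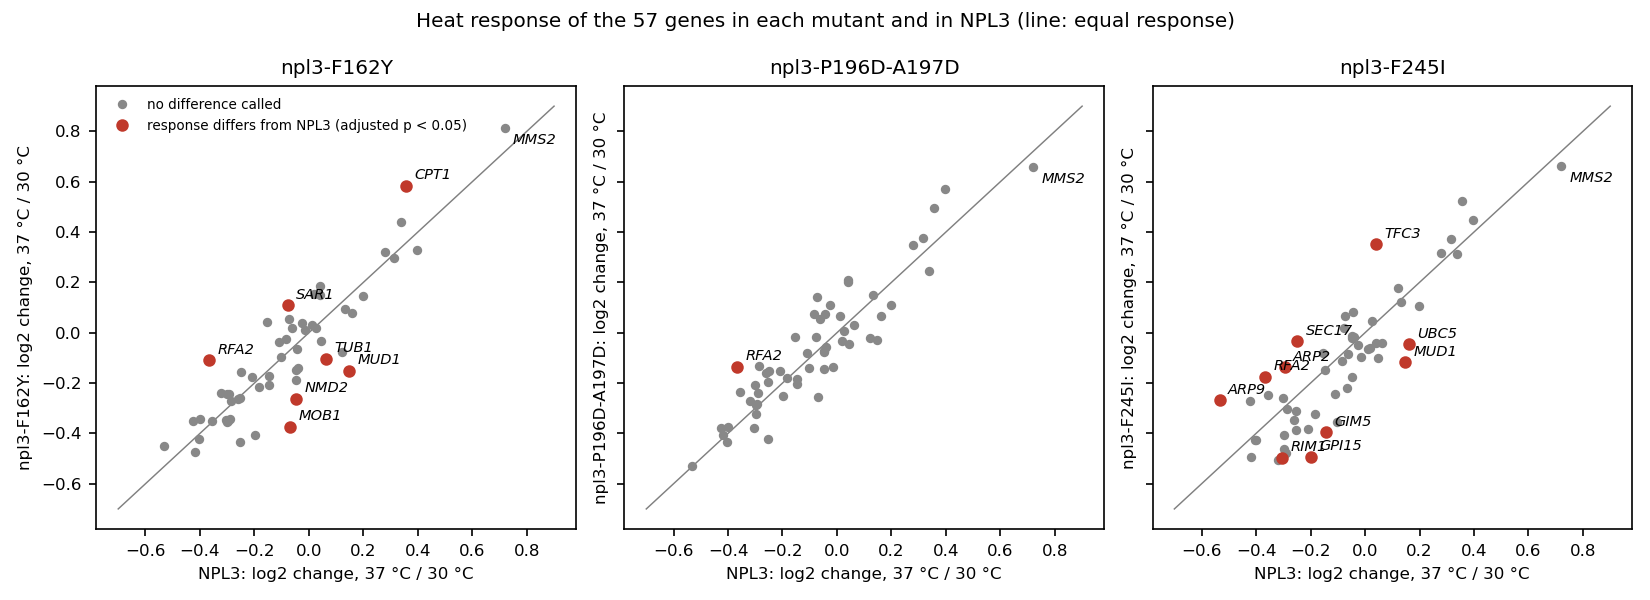
Log2 change from 30 °C to 37 °C of each of the 57 genes in each mutant (vertical axis) against that in NPL3 (horizontal axis), with the line of equal response; red points passed the interaction test at an adjusted p of 0.05. Most points lie near the line, MMS2 is highest in each strain, and 7, 1 and 10 genes are red in npl3-F162Y, npl3-P196D-A197D and npl3-F245I.

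Across the 57 genes the heat responses of the mutants and of NPL3, which share no library, had Pearson's r of 0.893, 0.916 and 0.869 for npl3-F162Y, npl3-P196D-A197D and npl3-F245I, as a description across genes. Over all features tested r was 0.817, 0.848 and 0.79 in the same order, so agreement of this kind was not particular to the 57. The median absolute difference in response was 0.07, 0.06 and 0.10 on the log2 scale.

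The mutants were also set against npl3-F245I, since UBC8, GLC7 and IWR1 passed in npl3-F162Y and npl3-P196D-A197D and did not pass in it; these contrasts share the npl3-F245I libraries and were chosen once the data had been seen. At 30 °C 12 of the 57 genes were higher and 9 lower in npl3-F162Y than in npl3-F245I, beside 16.9% and 16.8% of all features, and 14 higher and 5 lower in npl3-P196D-A197D, beside 16.6% and 11.6%. At 37 °C 18 were higher and 6 lower in npl3-F162Y, beside 19.7% and 18.5%, and 24 higher and 5 lower in npl3-P196D-A197D, beside 20.7% and 17.0%. Without npl3-F245I replicate 3 at 30 °C the lower count in npl3-F162Y at 30 °C was 5, and in the fit of only the groups compared the lower count in npl3-P196D-A197D at 30 °C was 10.

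UBC8, GLC7 and IWR1 differed between the mutants. Against npl3-F245I at 30 °C npl3-F162Y had UBC8 higher by log2 0.94 ± 0.08, GLC7 by 0.62 ± 0.04 and IWR1 by 0.72 ± 0.06 (SE). The rises in npl3-P196D-A197D were 0.50 ± 0.08, 0.37 ± 0.04 and 0.52 ± 0.06 (SE) for the same genes. The CPM values of these groups given above did not overlap. At 37 °C UBC8 was higher by log2 0.82 and 0.62, GLC7 by 0.50 and 0.33, and MMS2 by 0.35 and 0.34. SUS1 was higher at 37 °C by log2 0.33 and 0.30, with 52.9, 45.7 and 55.5 CPM in npl3-F162Y and 54.6, 46.2 and 50.8 CPM in npl3-P196D-A197D, against 40.8, 38.2 and 43.8 CPM in npl3-F245I. The groups did not overlap.

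TUB3, the minor alpha-tubulin, and MOB1, ARP9, MOB2 and SEC14, a phosphatidylinositol transfer protein of the Golgi, went the other way. TUB3 had 231, 248 and 229 CPM in npl3-F162Y and 255, 246 and 237 CPM in npl3-P196D-A197D at 37 °C, against 280, 280 and 265 CPM in npl3-F245I, with no overlap (log2 -0.22 and -0.16). TUB3 is 81.3% identical to TUB1 over the coding sequence and overlaps a noncoding gene on the other strand, so reads of these genes may be split or shared. MOB1 was lower by 0.32 and 0.34 and ARP9 by 0.30 and 0.29 on the log2 scale at 37 °C. The SEC14 difference in npl3-P196D-A197D at 37 °C (log2 -0.17, edgeR adjusted p = 0.0262) ended as a call without npl3-F245I replicate 1 (-0.17, edgeR adjusted p = 0.0512) or 3 (-0.14, edgeR adjusted p = 0.105) and without npl3-P196D-A197D replicate 2 (-0.12, edgeR adjusted p = 0.141). At 37 °C GIM4 and UBC12 were higher in npl3-P196D-A197D than in npl3-F245I, by log2 0.35 and 0.37.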

How the data were processed

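Total RNA was extracted with Trizol and made into stranded mRNA libraries (Illumina TruSeq), per the labels' protocols, 24 in all. FastQC, STAR 2.7.2a, HTSeq and build R64 are named, per the submitters' processing notes; the counting options are not given in the sources used here. The deposited values are raw counts per gene. The HTSeq summary lines were removed: their no-feature share was 4.39 to 6.51% and their ambiguous share 0.787 to 1.01%, beside 15.8 to 34.7 M assigned reads per library. How much counting error and differences between libraries each limited precision was not tested.

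From these counts, features were filtered with filterByExpr (6518 of 7127 kept) and scaled by TMM, and edgeR 4.0.16 fitted all 24 libraries with 1 mean for each group (robust quasi-likelihood, R 4.3.3, limma 3.58.1), with a biological coefficient of variation of 5.26% and 16 residual degrees of freedom. In all, 17 comparisons were made, with p-values adjusted over all features tested by Benjamini-Hochberg and a threshold of 0.05. CPM were computed here from the TMM-scaled library size. DESeq2 1.42.0, RLE size factors, no filter, only the groups compared, single libraries left out, the replicate number as a block, the 4 separately numbered libraries left out, and the number series as a term were alternatives.

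The genes named were the 5 largest rises and 5 largest falls of each mutant and heat comparison and the 4 largest each way of each interaction, with ACT1, TUB1, COF1, UBC4, GLC7 and SUS1 always; other names were chosen after their values were seen. A strain not named for a gene may still show a change of that gene. The members and lists were chosen with earlier results of these data known, and the contrasts against npl3-F245I and the number series term after the data were seen. Replicates were not duplicated libraries (smallest chi-square per degree of freedom 2.77). Same-numbered libraries deviated together in 1 comparison by the limit of 0.1 set for every pair, npl3-F162Y against NPL3 at 37 °C (r = 0.21, 0.546 and 0.281), where the block changed no call. The separately numbered replicate 2 libraries at 37 °C deviated together with that of NPL3 in each mutant. Their r was 0.546 in npl3-F162Y, 0.532 in npl3-P196D-A197D and 0.344 in npl3-F245I. With BLAST 2.17.0 against 6027 coding sequences, 0 of the 57 genes had a copy of 95% identity over 100 bases. Introns were read with Python 3.11.15 and pandas 2.3.3.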

Additional observations from a re-analysis of the deposited data

Results flagged for a closer look

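The response to 37 °C of 18 gene and mutant pairs differed from that in NPL3 by the interaction test (edgeR, Benjamini-Hochberg adjusted p under 0.05), each value being the log2 response in the mutant minus that in NPL3. In npl3-F162Y the differences were 0.258 for RFA2, 0.228 for CPT1, 0.188 for SAR1, -0.305 for MOB1, -0.299 for MUD1, -0.215 for NMD2 and -0.167 for TUB1. In npl3-P196D-A197D the difference was 0.232 for RFA2. In npl3-F245I they were 0.313 for TFC3, 0.265 for ARP9, 0.217 for SEC17, 0.193 for RFA2, 0.159 for ARP2, -0.292 for GPI15, -0.264 for MUD1, -0.25 for GIM5, -0.206 for UBC5 and -0.191 for RIM1. The NPL3 libraries enter all 3 interactions, so RFA2 in 3 mutants and MUD1 in 2 are not independent results.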

How the results depend on the processing

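Of 243 results for named genes, 209 kept their direction and side of the threshold in every setting, 165 of the 185 called ones stayed called, and 0 reversed. Counts moved by over 1.5 times as follows. In the fit of only the groups compared, 13 genes were higher in npl3-F245I at 30 °C, 11, 4 and 15 were lower in npl3-F162Y, npl3-P196D-A197D and npl3-F245I at 37 °C, 2 had a lower response in npl3-F162Y, 0 a higher one in npl3-P196D-A197D and 3 a higher one in npl3-F245I, and 10 were lower in npl3-P196D-A197D than in npl3-F245I at 30 °C. With the number series as a term, 14 were higher at 37 °C in npl3-P196D-A197D, 7 had a lower response in npl3-F162Y, 2 a higher one in npl3-P196D-A197D and 8 a lower one in npl3-F245I. RLE size factors gave 7 lower responses in npl3-F162Y, DESeq2 gave 7 there and 9 in npl3-F245I, and leaving out the 4 separately numbered libraries gave 9 in npl3-F245I. RLE size factors moved the median of all features by at most 0.03 on the log2 scale. With single libraries left out, lower responses ran from 2 to 5 in npl3-F162Y, higher ones from 0 to 1 and lower ones from 0 to 1 in npl3-P196D-A197D, higher ones from 3 to 6 and lower ones from 3 to 7 in npl3-F245I, and genes lower in npl3-F162Y than in npl3-F245I at 30 °C from 5 to 8. The shares of all features called in these settings are not given here, and the cause was not tested. With the replicate number as a block, 34 of 34 counts stayed within 1.5 times and 1 call changed, ACT1 in npl3-F162Y against npl3-F245I at 37 °C (0.156, edgeR adjusted p = 0.0228, against 0.155 and 0.0619 without the block); 8 of 24 libraries correlated best with one of their own number.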

Other observations

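Reads that fell in no annotated feature had a median share of 6.48%, 5.51%, 5.66% and 5.76% at 37 °C in npl3-F162Y, npl3-P196D-A197D, npl3-F245I and NPL3, against 5.14%, 4.99%, 5.12% and 4.58% at 30 °C. Where in the genome these reads lay is not shown by the counts.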
